A study of Arabidopsis thaliana with 9 samples.

Results

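ATG8E, WRKY6, SAG101 and CP1 are Arabidopsis thaliana genes linked to leaf senescence, autophagy and protein breakdown. They were taken as the probe sets whose single annotated gene is ATG8E (AT2G45170), WRKY6 (AT1G62300), SAG101 (AT5G14930) or CP1 (AT4G36880). Each gene had 1 probe set, so 4 genes were described of the 5927 that had a probe set of their own, and 4 probe sets of the 11228 tested. The symbol CP1 is shared in the gene table with a calcium-binding protein, so the protease was matched by its gene identifier, under which RefSeq also lists the names cysteine proteinase1 and RDL1.

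All 9 arrays were hybridized with RNA from whole wild-type seedlings, 3 arrays for each of 3 groups. Seedlings grown on MS medium, a plant salt medium, were 4 d old when they were moved to medium with 45 µM FPX, a compound known here by its code name alone. Groups were collected at 0 d (before exposure), 2 d and 8 d, with the stated purpose of finding genes affected by FPX for comparison with auxin and cytokinin, an arm that was not analysed here. Treated seedlings were also 2 d and 8 d older than those at 0 d. Seedlings kept off FPX to the same ages were not analysed here, and the 0 d arrays had been re-analysed from data shared with another series. Treatment, age and any batch therefore cannot be told apart in a comparison with 0 d, and both such comparisons share the same 0 d arrays. Between 2 d and 8 d, time on FPX and age likewise cannot be told apart.

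Senescing plant cells dismantle their proteins and plastids and send the released nitrogen to growing tissues. In autophagy, ATG8 proteins are coupled to a lipid on the forming autophagosome, which carries cell contents to the vacuole, where cysteine proteases of the papain type and legumains take part in breaking them down. ATG8E is 1 of 9 ATG8 genes in Arabidopsis. WRKY6 is a transcription factor of the WRKY family that is induced in senescing leaves, on wounding and on pathogen attack. SAG101, named as a senescence-associated gene, encodes a lipase-like partner of EDS1 in immune signalling. CP1 is a papain-like cysteine protease of the RD21 branch.

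The deposited table holds probe sets that differ between the groups, since 11205 of the 11228 (99.8%) passed a one-way comparison at a bound of 0.04. Counts below are therefore not shares of the genome, and a full count within a list says little by itself. Signals are MAS5 array intensities in arbitrary units. The 75th percentile of signal was between 1046 and 1103 on every array, and pairs of arrays within a group differed by a median of 0.10 to 0.15 on the log2 scale. Differences were tested with limma on log2(signal + 16), a scale that understates changes of dim probe sets, and a change was called at an adjusted p under 0.05. The adjustment ran over these selected probe sets alone. Adjusted p-values therefore do not account for that selection and may be too small. No detection call was used here, so a low signal cannot be set against background. Apart from the percentiles given for SAG101 and CP1, levels of different probe sets were not compared. In whole seedlings, fewer cells of a type and less RNA per cell cannot be told apart.

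The 4 genes took 4 different courses. ATG8E fell at 2 d and fell further by 8 d. WRKY6 fell at 2 d and by 8 d overlapped the 0 d arrays again. SAG101 was slightly lower at 2 d and higher at 8 d than at either other time. CP1 fell steeply by 2 d and was again low at 8 d.

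ATG8E gave signals of 1728, 2082 and 1394 on the 0 d arrays. At 2 d the arrays read 720.0, 954.8 and 816.7, and at 8 d they read 521.7, 540.0 and 434.9. The groups did not overlap at any time, and every later array was below every earlier one. Mean signal went from 1735 ± 344 (SD, n = 3) to 830 ± 118 and then 499 ± 56.1, or 47.9% and 28.8% of the 0 d mean. The log2 change was -1.04 (SE 0.15, limma adjusted p = 9.90e-05) at 2 d and -1.75 (SE 0.15, limma adjusted p = 5.56e-07) at 8 d. The step from 2 d to 8 d was -0.71 (SE 0.15, limma adjusted p = 0.00124). Of all probe sets tested, 521 had a fall at least as large at 2 d and 639 at 8 d, counting ATG8E itself.

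WRKY6 gave signals of 394.6, 441.2 and 334.3 at 0 d. The 2 d arrays read 210.1, 202.6 and 287.5, all below every 0 d array. The 8 d arrays read 377.0, 363.1 and 331.0, above every 2 d array and overlapping the 0 d arrays. The mean was 390 ± 53.6 (SD, n = 3) at 0 d, 233 ± 47.0 at 2 d and 357 ± 23.6 at 8 d, so the 2 d level was 59.8% and the 8 d level 91.5% of that at 0 d. WRKY6 fell by 0.71 on the log2 scale at 2 d (SE 0.14, limma adjusted p = 7.24e-04) and rose by 0.59 from 2 d to 8 d (SE 0.14, limma adjusted p = 0.00210). From 0 d to 8 d the difference was -0.12, with a 95% interval of -0.41 to 0.18 (limma adjusted p = 0.425), so the return cannot be read as complete. That last value depended on how arrays were brought to a common level: it was -0.37 (limma adjusted p = 0.0235) with array medians set equal and -0.42 (limma adjusted p = 0.0113) after quantile normalization, but 0.13 (limma adjusted p = 0.425) when arrays were scaled on their hybridization controls.

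SAG101 gave signals of 96.42, 125.5 and 84.84 at 0 d. The 2 d arrays read 89.70, 73.74 and 69.31, of which the first lay above the lowest 0 d array. The 8 d arrays read 168.5, 194.7 and 163.9, above every array of both other groups. Means were 102 ± 20.9 (SD, n = 3), 77.6 ± 10.7 and 176 ± 16.6. Those means stood at percentiles 7.76, 2.22 and 13.3 of all probe sets, so SAG101 was dim at each time. SAG101 rose by 0.71 on the log2 scale from 0 d to 8 d (SE 0.13, limma adjusted p = 3.23e-04), which is 1.63-fold. That rise lay between the median (0.36) and the upper quartile (0.90) of all probe sets, of which 66.3% had a lower value. It was 0.45 with array medians set equal, 0.39 after quantile normalization and 0.96 on the hybridization controls, and stayed called under these scalings. From 2 d to 8 d SAG101 rose by 1.04 (SE 0.13, limma adjusted p = 3.05e-05). The dip at 2 d was -0.33 (SE 0.13, limma adjusted p = 0.0408), and this call rested on single arrays. The change was -0.36 (limma adjusted p = 0.0588) without 0 d replicate 1, -0.19 (0.172) without 0 d replicate 2, -0.30 (0.102) without 2 d replicate 2, -0.27 (0.132) without 2 d replicate 3, and -0.33 (0.0516) without 8 d replicate 1. With arrays scaled on their hybridization controls it was -0.22 (limma adjusted p = 0.180). Other scalings gave a larger dip, -0.51 (limma adjusted p = 0.00443) with array medians set equal and -0.62 (0.00153) after quantile normalization.

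CP1 gave signals of 1396, 921.1 and 1759 at 0 d. At 2 d the 3 arrays read 51.26, 51.53 and 58.44. At 8 d they read 95.38, 70.80 and 23.31, so every treated array was far below the lowest 0 d array. The mean signal was 1359 ± 420 (SD, n = 3) at 0 d, 53.7 ± 4.07 at 2 d and 63.2 ± 36.6 at 8 d. The 2 d and 8 d means stood at percentiles 0.69 and 1.72 of all probe sets, so low that ratios are uncertain in size. The ratio of means was 25.3 for 0 d over 2 d and 21.5 for 0 d over 8 d. On the log2(signal + 16) scale the changes were -4.25 (SE 0.32, limma adjusted p = 7.45e-07) and -4.20 (SE 0.32, limma adjusted p = 2.23e-07). At 2 d this was the largest fall of all 11228 probe sets, and at 8 d the fourteenth largest fall. The size depended on the constant added before the logarithm: with 1 added the changes were -4.59 and -4.57, and with 64 added -3.55 and -3.48. Between 2 d and 8 d the difference was 0.06, with a 95% interval of -0.65 to 0.77 (limma adjusted p = 0.881). The 8 d arrays spread widely around that value, and it was -0.25 without 8 d replicate 1 and -0.07 without 8 d replicate 2.

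**Figure D1:**
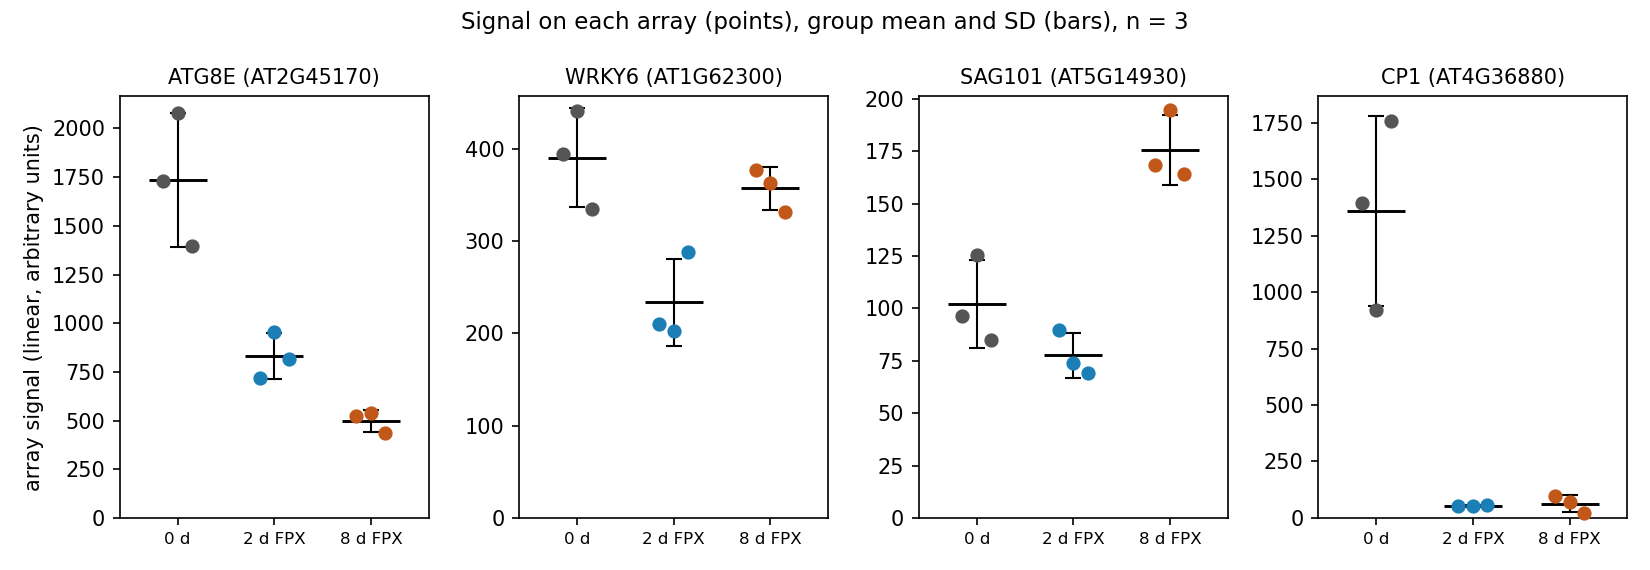
Array signal (linear, arbitrary units, each axis from 0) of the 4 genes at 0 d, 2 d and 8 d on FPX; points are arrays, long bars the mean and short bars the SD, n = 3. ATG8E steps down at each time, WRKY6 dips at 2 d, SAG101 is highest at 8 d, and CP1 drops from a mean of 1359 to 53.7 and 63.2.

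At 2 d all 4 genes passed the threshold, all of them lower, against 28.1% of all probe sets called lower and 72.7% called in either direction. The call of SAG101 among them held under 8 of 17 alternatives, and without it the count is 3 of 4. For 3 of the 4 the 2 d arrays lay wholly below the 0 d arrays. Groups did not overlap for 76.3% of all probe sets, with 30.1% lower and 46.2% higher. At 8 d, 2 genes were lower and 1 was higher than at 0 d, where 91.0% of all probe sets were called (36.1% lower, 54.9% higher). Between 2 d and 8 d, 2 genes rose and 1 fell, where 76.0% were called (43.9% higher, 32.1% lower). For 3 of the 4 genes the 8 d arrays did not overlap the 0 d arrays, as for 91.8% of all probe sets (36.6% lower, 55.2% higher). For 3 of the 4 they did not overlap the 2 d arrays, as for 79.7% of all probe sets (33.3% lower, 46.4% higher). Over the whole table the log2 change had a median of 0.17 at 2 d, 0.36 at 8 d and 0.15 between them, so the falls of ATG8E and CP1 ran against the centre of the table. Relative to the 2 d change, the 8 d change was more negative for ATG8E and more positive for WRKY6 and SAG101. The contrast of 8 d with 2 d tests this directly.

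**Figure D2:**
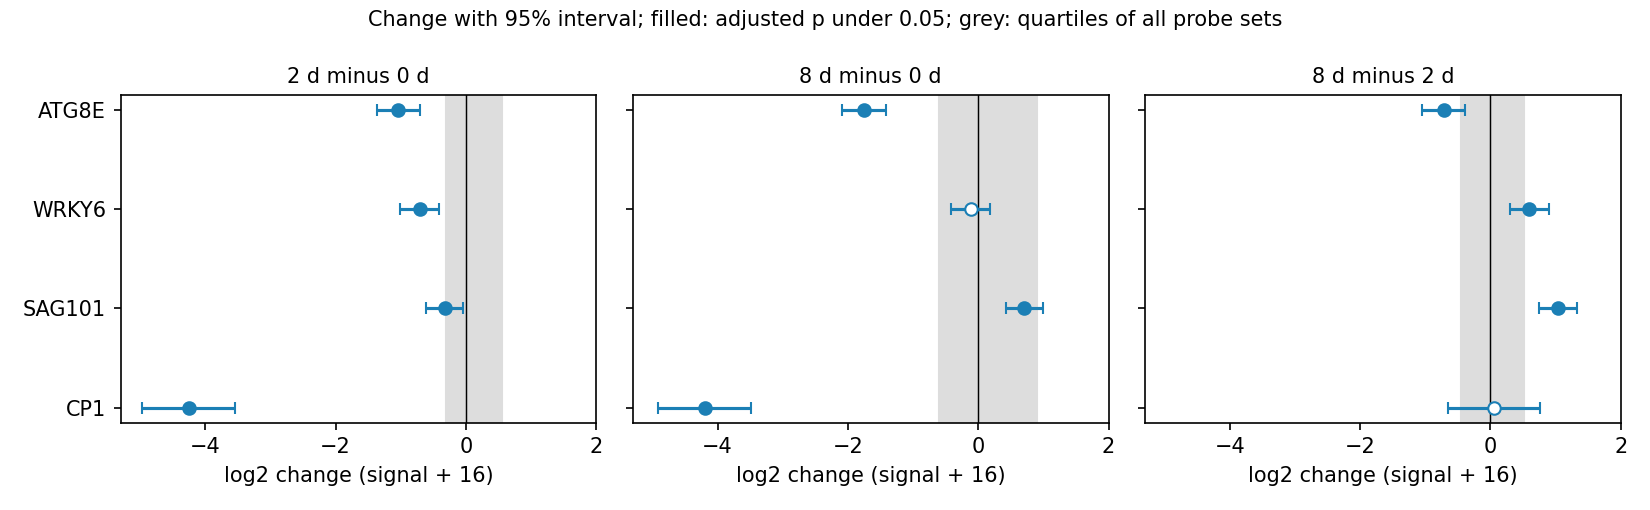
Log2 change of signal + 16 for the 4 genes in the 3 comparisons, with 95% intervals; filled points passed an adjusted p of 0.05 and the grey band runs from the lower to the upper quartile of all probe sets. CP1 lies near -4.2 in both comparisons with 0 d, and the open points are WRKY6 at 8 d against 0 d (-0.12) and CP1 at 8 d against 2 d (0.06).

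Other genes of these pathways were read from 13 lists composed from general knowledge, with earlier results of these data known. Lists were described by counts and medians, and only genes present in the table could be counted. Beside them, 44.6% of all probe sets were called higher and 28.1% lower at 2 d. At 8 d, 54.9% were called higher and 36.1% lower. The median log2 change over all probe sets was 0.17 at 2 d and 0.36 at 8 d.

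Autophagy genes split in direction. The list of core autophagy genes and receptors had 11 of 45 genes measured. At 2 d, 3 rose and 6 fell, with a median log2 change of -0.41, and at 8 d, 3 rose and 4 fell, with a median of -0.10. Scaling on the hybridization controls turned the 8 d split to 5 higher and 2 lower, and setting medians equal gave 3 higher and 7 lower. Of the 11 genes, 8 were ATG8 genes, a grouping drawn after their values had been seen. At 2 d, 2 of the 8 rose and 5 fell, and at 8 d, 2 rose and 4 fell. Under the 3 other scalings 5 or 6 fell at 2 d, while at 8 d the hybridization controls gave 3 higher and 2 lower.

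ATG8H followed ATG8E most closely among the ATG8 genes. Its signals were 868.5, 968.5 and 916.4 at 0 d, 407.7, 353.8 and 429.6 at 2 d, and 232.5, 198.2 and 188.3 at 8 d. It fell by 1.18 on the log2 scale at 2 d (SE 0.10, limma adjusted p = 2.15e-06) and by 2.07 at 8 d (SE 0.10, limma adjusted p = 7.21e-09), with no overlap between groups. ATG8G and ATG8B went the other way. ATG8G rose from 216.0, 220.5 and 192.4 at 0 d to 351.9, 452.9 and 343.5 at 2 d and 596.8, 580.3 and 595.2 at 8 d, a log2 change of 0.81 (limma adjusted p = 5.01e-05) and 1.43 (limma adjusted p = 1.86e-07). ATG8B read 351.8, 343.9 and 317.6 at 0 d and 981.8, 952.8 and 919.8 at 8 d, a log2 rise of 1.45 (SE 0.11, limma adjusted p = 2.07e-07). At 2 d ATG8B was higher by 0.31 (limma adjusted p = 0.0252), a call lost with medians set equal (0.13) or quantile normalization (0.08).

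The remaining ATG8 genes moved less. ATG8C changed by -0.41 and ATG8D by -0.44 at 2 d on the log2 scale (limma adjusted p = 0.00174 and 0.00427), and neither passed at 8 d. APG8H, also listed as ATG8I, changed by -0.41 at 2 d (limma adjusted p = 0.00228) and by -0.30 at 8 d (limma adjusted p = 0.00922), the latter not called after quantile normalization or scaling on the hybridization controls. APG8A, also listed as ATG8A, passed only at 8 d, with -0.49 (limma adjusted p = 0.00107), not called when scaled on the hybridization controls. ATG3, the enzyme that passes ATG8 to its lipid, fell by 0.49 at 2 d (limma adjusted p = 3.57e-04) and was not called at 8 d, where it read 949.1, 944.3 and 1019 against 1035, 1032 and 1060 at 0 d. None of the 6 listed nutrient-sensing kinase genes was in the table.

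**Figure D3:**
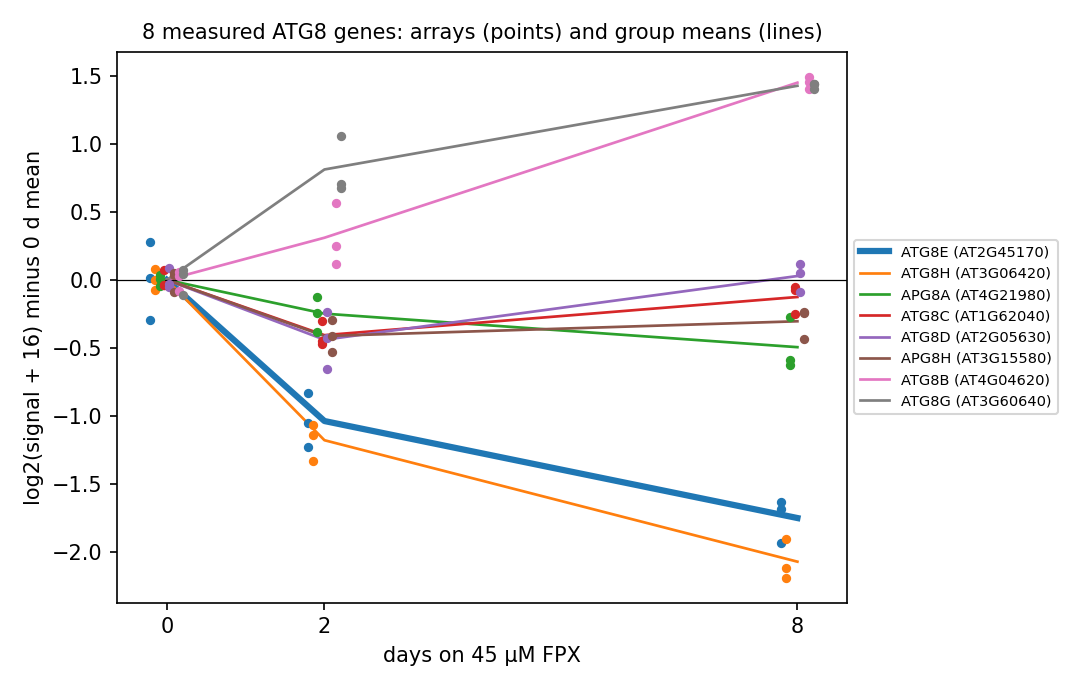
Log2(signal + 16) minus the 0 d mean for 8 ATG8 genes over days on FPX; points are arrays, lines join group means, and ATG8E is the thick line. ATG8E and ATG8H fall to -1.75 and -2.07 at 8 d, ATG8B and ATG8G rise to 1.45 and 1.43, and the other genes stay within 0.5 of the 0 d mean in their group means.

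Among regulators of senescence, 4 of 33 listed genes were measured: WRKY6, WRKY22, EIN3 and EEL. EEL, a bZIP factor of abscisic acid responses, rose most. Its signals were 82.04, 89.38 and 57.53 at 0 d, 259.3, 270.6 and 257.8 at 2 d, and 1637, 1508 and 1537 at 8 d. That is a log2 change of 1.61 (SE 0.12, limma adjusted p = 6.79e-07) and then 4.11 (SE 0.12, limma adjusted p = 3.90e-10). WRKY22, a WRKY factor with a role in dark-induced senescence, fell by 0.92 at 8 d (SE 0.17, limma adjusted p = 3.63e-04). Its 2 d value of -0.45 (limma adjusted p = 0.0358) came from overlapping groups and was not called with scaling on the hybridization controls or without any 1 of 4 arrays (0 d replicates 2 and 3, 2 d replicates 1 and 2). EIN3, a transcription factor of ethylene signalling, was 0.42 higher at 8 d (limma adjusted p = 0.00346), which was lost with medians set equal. Of the 12 genes listed for WRKY6's own subgroup and for genes linked to it, WRKY6 and WRKY47 were measured. WRKY47 gave -0.28 at 8 d (limma adjusted p = 0.0173), which was not called with arrays scaled on the hybridization controls or without any 1 of 3 arrays (0 d replicates 2 and 3, 8 d replicate 2).

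Of 21 listed genes named for their association with senescence or darkness, SAG101, SAG29 and YLS5 were measured. All 3 were higher at 8 d under all 4 scalings, where 54.9% of all probe sets were called higher. SAG29 (SWEET15), a sugar transporter, had its highest signals at 2 d. Its arrays read 134.4, 133.2 and 155.9 at 0 d, 693.1, 721.4 and 872.5 at 2 d, and 352.3, 369.6 and 415.8 at 8 d, with log2 rises of 2.30 (SE 0.11, limma adjusted p = 3.01e-08) and 1.33 (SE 0.11, limma adjusted p = 3.68e-07) over 0 d. YLS5 was not called at 2 d (limma adjusted p = 0.921), where it read 661.1, 657.7 and 664.5 against 738.7, 639.4 and 597.0 at 0 d. It then read 1873, 2194 and 2017 at 8 d, a log2 rise of 1.60 (SE 0.10, limma adjusted p = 3.16e-08). SAG101 was the 1 measured gene of the 19 listed as partners or outputs of EDS1.

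Few listed genes of chlorophyll breakdown and nutrient remobilization were matched to a probe set. NOL, a chlorophyll b reductase and the 1 measured gene of 10 in chlorophyll breakdown, fell by 1.13 on the log2 scale at 8 d (SE 0.14, limma adjusted p = 1.57e-05). At 2 d NOL gave -0.41 (limma adjusted p = 0.0238) from overlapping groups, not called with scaling on the hybridization controls or without 0 d replicate 2, 2 d replicate 2 or 2 d replicate 3. Of 25 listed remobilization genes, 3 were measured. PPDK, pyruvate orthophosphate dikinase, rose by 1.35 at 8 d (SE 0.10, limma adjusted p = 1.34e-07), from 864.3, 715.3 and 884.2 to 2132, 2179 and 2036. MCCA, a subunit of a leucine-breakdown carboxylase, gave -0.53 at 8 d (limma adjusted p = 0.00193), lost with scaling on the hybridization controls. AT4G33150 fell by 0.47 at 2 d (limma adjusted p = 0.00143) and read 773.5, 761.4 and 735.4 at 8 d against 611.4, 757.8 and 586.1 at 0 d.

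Papain-like cysteine proteases, the class of CP1, were mostly lower. Of 29 listed genes 10 were measured, and RefSeq gives a symbol to CP1 alone, so the other 9 stand here by locus code. At 2 d, 1 rose and 9 fell, with a median log2 change of -0.61, against 28.1% of all probe sets called lower. At 8 d, 3 rose and 6 fell, with a median of -0.44, against 36.1% of all probe sets called lower. The numbers that fell under the other 3 scalings were 6 to 9 at 2 d and 5 to 7 at 8 d. Leaving CP1 out, 8 of 9 fell at 2 d and 5 of 9 at 8 d. None of the other 9 measured genes of this list had a fall near that of CP1. AT3G43960 read 448.6, 474.9 and 395.9 at 0 d, 131.4, 130.3 and 129.4 at 2 d, and 96.23, 115.1 and 87.12 at 8 d. It changed by -1.98 on the log2 scale at 8 d (SE 0.10, limma adjusted p = 9.89e-09). AT3G19390 read 1037, 1048 and 672.5 at 0 d and 253.3, 264.9 and 266.5 at 8 d, a change of -1.73 (SE 0.14, limma adjusted p = 4.55e-07).

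The exception was AT2G34080, which rose at both times. Its signals were 117.9, 112.9 and 152.2 at 0 d, 414.7, 326.0 and 504.2 at 2 d, and 727.7, 849.6 and 757.0 at 8 d, with log2 changes of 1.57 (SE 0.15, limma adjusted p = 4.18e-06) and 2.47 (SE 0.15, limma adjusted p = 3.32e-08). AT4G01610 and AT3G19400 had a course like that of SAG101. AT4G01610 read 4866, 4579 and 5073 at 0 d, 4152, 3741 and 3992 at 2 d, and 5674, 5221 and 5883 at 8 d. AT3G19400 read 290.0, 299.0 and 273.7, then 263.5, 196.7 and 232.7, then 395.8, 372.3 and 312.9. From 2 d to 8 d they rose by 0.50 (limma adjusted p = 3.04e-04) and 0.61 (limma adjusted p = 6.18e-04). Their changes against 0 d were small, -0.29 and 0.21 for AT4G01610 and -0.31 and 0.30 for AT3G19400, and each of these 4 calls was lost under at least 1 other scaling or with an array left out.

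Other listed proteases were also mostly lower. Of 18 listed legumains, metacaspases, aspartic proteases and related genes, 7 were measured. At 2 d, 2 rose and 5 fell (median -0.38), against 28.1% of all probe sets called lower. At 8 d, 2 rose and 5 fell (median -1.01), against 36.1% of all probe sets called lower. Under the other scalings 3 to 5 fell at 2 d and 4 or 5 fell at 8 d. The legumains, or vacuolar processing enzymes, differed among themselves. ALPHA-VPE read 46.25, 70.23 and 64.31 at 0 d, 312.4, 319.1 and 399.4 at 2 d, and 111.0, 75.88 and 124.0 at 8 d. It rose by 2.24 at 2 d (SE 0.17, limma adjusted p = 6.91e-07) and was 0.64 above 0 d at 8 d (SE 0.17, limma adjusted p = 0.00357). BETA-VPE fell by 0.52 and then by 1.03 against 0 d (limma adjusted p = 0.00269 and 9.07e-06). GAMMA-VPE, the legumain best known from vegetative organs, fell by 0.56 at 2 d (limma adjusted p = 4.06e-04) and read 1482, 1440 and 1479 at 8 d against 1843, 2097 and 1617 at 0 d. AT1G62290, which lies next to WRKY6 in the RefSeq gene order, fell by 1.65 at 8 d (SE 0.12, limma adjusted p = 1.35e-07), and AT3G14067 fell by 1.29 (SE 0.10, limma adjusted p = 2.09e-07).

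**Figure D4:**
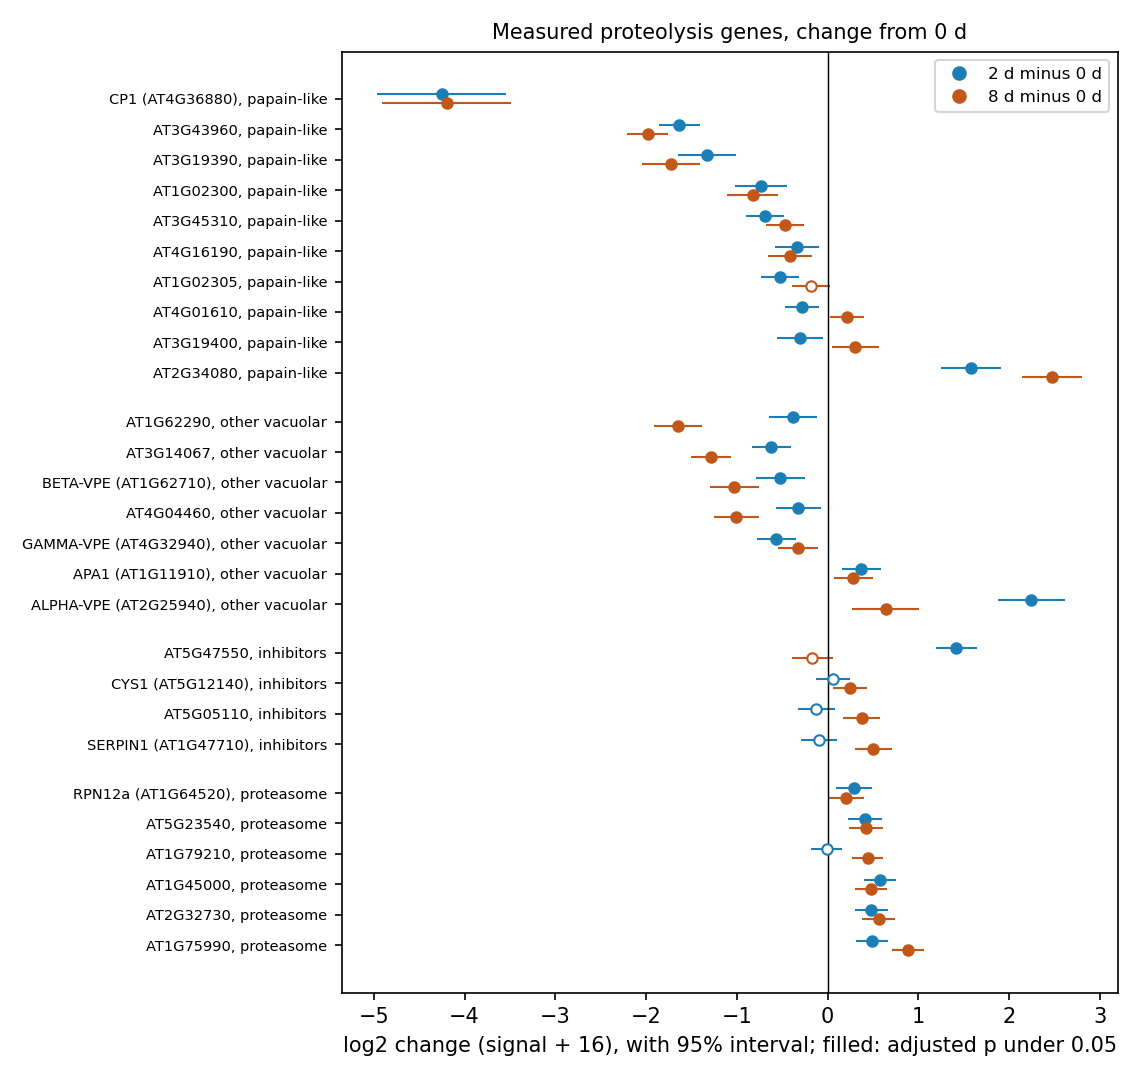
Log2 change of signal + 16 from 0 d, with 95% intervals, for the measured proteolysis genes. They are papain-like proteases, other listed proteases (labelled other vacuolar), protease inhibitors and proteasome genes. Filled points passed an adjusted p of 0.05. CP1 lies farthest to the left at -4.25 and -4.20, AT2G34080 and ALPHA-VPE lie on the right at 2 d, and the 6 proteasome genes lie at or above 0 except AT1G79210 at 2 d (-0.01).

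Protease inhibitors and proteasome genes are given beside the proteases. Of 8 listed inhibitors 4 were measured, 1 of which rose at 2 d and 3 at 8 d. Setting medians equal changed these counts to 1 higher and 2 lower at 2 d and 1 higher and 1 lower at 8 d. AT5G47550 rose by 1.42 at 2 d (SE 0.10, limma adjusted p = 4.94e-07), from 1937, 2092 and 2006 to 4912, 6082 and 5271, and read 1867, 1608 and 1902 at 8 d. SERPIN1, a serpin that binds the protease RD21, was 0.50 higher at 8 d (SE 0.09, limma adjusted p = 2.84e-04). AT5G05110 and CYS1 were higher at 8 d by 0.38 and 0.25 (limma adjusted p = 0.00257 and 0.0163), calls lost with medians set equal. Of 52 listed genes of the 26S proteasome, which degrades ubiquitin-tagged proteins, 6 were measured. At 2 d, 5 rose and none fell (median 0.45), and at 8 d, 6 rose (median 0.46). Of all probe sets, 44.6% were called higher at 2 d and 54.9% at 8 d, with medians of 0.17 and 0.36. With medians set equal, 4 of the proteasome genes rose and 1 fell at 2 d and 4 rose at 8 d. AT1G75990 had the largest rise, 0.89 at 8 d (SE 0.08, limma adjusted p = 8.96e-07). Of 20 listed plastid proteases, CLPP4, a subunit of the plastid Clp protease, and AT1G09130 were measured. CLPP4 fell by 0.47 at 2 d and 1.34 at 8 d (limma adjusted p = 2.86e-04 and 2.56e-08), and AT1G09130 fell by 0.45 at 8 d (limma adjusted p = 2.34e-04).

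Genes listed as tissue markers moved in the same arrays. RCA, the Rubisco activase of mesophyll and the 1 measured of 6 mesophyll markers, read 18002, 17283 and 15741 at 0 d and 9408, 11672 and 10329 at 8 d, a change of -0.70 (limma adjusted p = 2.71e-05) that was not called after quantile normalization (-0.16). Of 8 markers linked to guard cells and trichomes 3 were measured, and all 3 were lower at 8 d, as were 36.1% of all probe sets. STOMAGEN, a mesophyll-made peptide that promotes stomata, fell by 3.39 at 8 d (SE 0.15, limma adjusted p = 2.87e-09). SIM, a cell-cycle inhibitor of trichomes, fell by 1.51 (limma adjusted p = 1.38e-07), and FMA, a guard-cell factor, gave -0.62 (limma adjusted p = 0.00877), lost with scaling on the hybridization controls. Of 6 genes listed as root markers 2 were measured, and neither is taken to stand for root alone. NAI2 fell by 0.55 at 2 d (limma adjusted p = 4.33e-04) and PYK10 gave -0.31 at 2 d and -0.39 at 8 d (limma adjusted p = 0.00383 and 5.06e-04), of which the 2 d call was lost and the 8 d value turned to 0.15 after quantile normalization, and both calls were lost on the hybridization controls. None of the 8 xylem markers was matched to a probe set of 1 gene. The part of these tissues in the values of the 4 genes was not tested.

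The genes with courses nearest to each of the 4 were sought among 905 other probe sets with a symbol of their own. Likeness was measured as the root mean square difference of log2(signal + 16), less the 0 d mean, over the 9 arrays. Nearest to ATG8E were PCME at 0.18, the plastid genes rps2 at 0.21 and rps16 at 0.23, and AILP1 at 0.24, against a median of 1.32 over all compared. Nearest to WRKY6 were NAI2 and AZG1, both at 0.18, UGT72E2 at 0.20 and SCPL34 at 0.22, against a median of 0.77. Nearest to SAG101 were SCL21 and COR47, both at 0.17, and TBL39 and DPE1, both at 0.18, against a median of 0.77. For CP1, whose own arrays spread from -0.88 to 0.62 around their 8 d mean, MSRB9 was nearest at 0.75, LHCB4.3 stood at 1.08, XTH18 came after it and XTH16 stood at 1.31, against a median of 3.54. MSRB9, a methionine sulfoxide reductase, changed by -3.79 at 2 d and -3.64 at 8 d.

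Genes beside the 4 in the RefSeq TAIR10.1 gene order, up to 2 on each side, were measured in 4 of 16 cases. The gene after ATG8E, AT2G45180, changed by -0.68 at 8 d (limma adjusted p = 2.27e-04). The gene after SAG101, AT5G14940, had mean signals of 102 at 0 d, 103 at 2 d and 159 at 8 d, a change of 0.57 at 8 d (limma adjusted p = 0.00122). AT5G14910, which lies 2 genes before SAG101, moved the opposite way, with -2.28 at 8 d (limma adjusted p = 1.03e-09). The fourth was AT1G62290 beside WRKY6, and no neighbour of CP1 was matched to a probe set of 1 gene.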

How the data were processed

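Total RNA of whole wild-type seedlings was measured on 9 Affymetrix arrays, 3 per group. Cy3 and biotinylated cRNA are both named in the labels. The authors deposited 1 table of linear array intensity per probe set, made with MAS5 per the submitters' processing notes. The sources used here do not give the MAS5 version, the genome build or any scaling between arrays. The deposited table held 11249 probe sets, of which 21 controls were left out of the tests. Genes were named through the platform annotation and RefSeq gene identifiers: 5962 of the 5981 probe sets of 1 gene matched, 222 had several genes and 5025 were not listed.

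From the deposited intensity, log2(signal + 16) was computed and fitted with 1 mean per group over 9 arrays in limma 3.58.1 (R 4.3.3; lmFit, contrasts.fit, eBayes; two-sided, Benjamini-Hochberg over 11228 probe sets, threshold 0.05). Tables and plots used Python 3.11.15, pandas 2.3.3 and matplotlib 3.10.9. Whether arrays of a group came from separate cultures is not stated in the labels, so a p-value covers the spread among these arrays alone and that spread may be technical. The number of arrays limits the precision. Deviations of arrays that share a number correlated at -0.091 to 0.106, so the numbers were not treated as pairing arrays.

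The 4 genes and all lists were chosen with earlier results of these data known. From each list up to 4 measured genes that passed against 0 d, with the largest changes, were named, and 4 nearest courses per gene. APG8A, ATG8C, ATG8D, APG8H, ATG3, GAMMA-VPE, RPN12a, AT2G37840, AT3G19400, AT4G01610 and the neighbouring genes fell outside that rule and were chosen after their values were seen. Alternatives were the constant added, the scaling of arrays, a filter on dim probe sets, the fit of the groups compared, an intensity trend, a replicate block and each array left out. Scaling on the hybridization controls rested on the 7 such probe sets in the deposited table. Whether the selection of that table touched them was not tested.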

Additional observations from a re-analysis of the deposited data

Results flagged for a closer look

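In 3 of the 4 genes the change at 8 d differed from that at 2 d by the contrast of both times. This contrast is the test of that difference, and age and time on FPX differ together in it. The 8 d change minus the 2 d change was -0.71 on the log2 scale for ATG8E (limma adjusted p = 0.00124), 0.59 for WRKY6 (0.00210) and 1.04 for SAG101 (3.05e-05). All 3 arrays of each group showed the direction. Of the papain-like proteases, AT4G01610 gave 0.50 (limma adjusted p = 3.04e-04) and AT3G19400 gave 0.61 (6.18e-04). Each was lower than 0 d at 2 d and higher at 8 d, but these calls against 0 d were lost under other scalings. The 8 d values turned to -0.046 for AT4G01610 with medians set equal and -0.033 for AT3G19400 after quantile normalization. Differences between 2 d and 8 d were common, since 76.0% of all probe sets were called.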

How the results depend on the processing

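Of the 12 comparisons of the 4 genes, 9 kept their direction and their side of the threshold under every alternative that gave a value. With the dimmest probe sets left out, SAG101 and CP1 had no value. WRKY6 at 8 d against 0 d (-0.12) passed with medians set equal (-0.37) and after quantile normalization (-0.42), and turned to 0.13 on the hybridization controls. SAG101 at 2 d (-0.33) was not called with 64 added (-0.23, limma adjusted p = 0.0566), on the hybridization controls (-0.22), in a fit of both groups alone (-0.33, 0.0570) or with an intensity trend (-0.33, 0.0713). It passed with medians set equal (-0.51) and after quantile normalization (-0.62). With each array left out it ranged from -0.44 to -0.19. CP1 between 2 d and 8 d ranged from -0.25 to 0.50 with each array left out and was -0.019 with medians set equal. Of 88 called changes of list genes, 31 lost the call under at least 1 alternative, each of them under at least 1 scaling, and 6 turned sign without being called: CYS1 (-0.0053), AT4G01610 (-0.046) and RPN12a (-0.050) at 8 d with medians set equal, and AT3G19400 at 8 d (-0.033), PYK10 at 8 d (0.15) and AT2G37840 at 2 d (-0.021) after quantile normalization. The causes were not tested. Scalings moved the share of higher calls from 61.3% at 2 d to 46.3% with medians set equal, 51.1% after quantile normalization and 70.1% on the hybridization controls. At 8 d the shares were 60.3% against 51.7%, 55.2% and 67.9%, and between the times 57.7% against 51.9%, 56.1% and 66.4%. With the replicate block, 8115, 10191 and 8507 probe sets were called against 8160, 10217 and 8534, ATG8E at 2 d stayed at -1.04 (limma adjusted p = 4.52e-05), and no call of the 4 genes changed. Leaving out each array gave 7496 to 8197, 9969 to 10209 and 7919 to 8586 calls.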

Other observations

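At 0 d, replicate 2 had the highest signal of the 3 arrays for ATG8E, WRKY6 and SAG101 and the lowest for CP1. Its deviation from the 0 d mean on the log2 scale was 0.28, 0.18, 0.27 and -0.50. Replicate 3 had the opposite order, at -0.29, -0.20, -0.22 and 0.42. The CP1 spread at 8 d was wider, from 0.62 for replicate 1 to -0.88 for replicate 3.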
